A study of Mus musculus with 6 samples.

Results

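The genes described here are 41 genes of the oligodendrocyte lineage, taken by symbol from a list chosen with earlier results of these data known. They run from precursor markers through lineage transcription factors to myelin genes. They were read from RNA-seq counts per gene in 6 libraries, which held 32531 named genes, and all 41 were found. The mice were adult, untreated controls of the Cbln1-TRAP line NIDA030, which carries Cbln1-EGFP/Rpl10a, and the labels give thalamus as the tissue. The names of the deposited files add a nucleus, spelled Parafaciculus nucleus, that the labels do not give, so the exact region behind the Input values is uncertain. In translating ribosome affinity purification (TRAP), a ribosomal protein fused to EGFP, a green fluorescent tag, is expressed in cells chosen by a driver gene, here Cbln1, and the tagged ribosomes are recovered with antibodies. There were 3 immunopurified libraries (IP) and 3 Input libraries, and IP and Input libraries with the same replicate number carry the same lane code in the labels. Both kinds came from mice with the tagged protein, both are labelled as ribosome-bound RNA, and no pull-down from mice without the tag was analysed here. The labels do not say whether replicates were separate animals, so the p-values cover the spread among these libraries, which may be technical.

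Oligodendrocytes wrap axons in myelin, a stack of membrane rich in galactolipids and in a small set of structural proteins. They arise from precursor cells that carry Pdgfra and Cspg4, pass through a committed stage marked by Gpr17, and then switch on myelin genes under Sox10, Olig2 and Myrf. Thalamus holds many myelinated fibres, so its tissue RNA contains myelin messages. Some of these messages, such as that of Mbp, are carried into the cell processes and translated there.

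Assigned counts ran from 23929070 to 57385828 per library. Levels are in CPM (counts per 1000000) after TMM scaling (trimmed mean of M-values), and 1 CPM stood for 25.5 to 52.3 counts. The thalamic neuron genes Slc17a6 (198 CPM in Input, 412 in IP) and Tcf7l2 (1124 and 2014 CPM) were present in every library, and Cbln1 rose from 79.8 ± 9.64 to 1428 ± 67.8 CPM (SD, n = 3 each). Of the 10 genes of this thalamic list, 5 were higher in IP, 2 were lower (Rora and Zic1) and 3 were not called. Of 6 genes of Schwann cells, the myelin-forming cells of peripheral nerve, 4 were too low to test, and the 6 together came to 4.15 to 5.25 CPM in Input and 1.36 to 3.36 CPM in IP. The summed level of 10 choroid plexus and ependymal genes was lowest in replicate 1 of both groups. It was 47.8, 557 and 617 CPM in Input replicates 1, 2 and 3 and 9.42, 53.8 and 47.5 CPM in IP. In replicates 2 and 3 most of it was the choroid plexus gene Ttr (477 and 542 CPM in Input). Single genes of the list differed, and the ependymal gene Foxj1 was lowest in replicate 2 of both groups. The ribosomal RNA precursor Rn45s took 5.21 to 5.40% of assigned counts in Input and 9.38 to 14.5% in IP, most in IP replicate 1, and its part in the results was not tested.

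The sequences before 3 myelin genes that were lower in IP are shown. They were picked for short motifs of the lineage's own transcription factors. Each region holds a SOX motif, and those of Cnp and Mag also hold a Myrf motif. The presence of motifs in them was thus fixed by the choice, and a relation to the values in IP was not tested. RefSeq (GRCm38.p6, the same build as mm10) gave promoter windows for 28 of the 41 genes. Each line runs 5′ to 3′ on the gene's strand, from base -250 relative to the RefSeq start up to the last base before any annotated exon. Capitals mark ACAAAG, a core bound by SOX proteins such as Sox10, on either strand, and CTGGCAC, a form of the motif of Myrf, on either strand; no 2 marked matches overlap. The regions are chr9:120149492-120149706 (plus strand), chr11:100574689-100574903 (plus strand) and chr7:30914923-30915172 (minus strand).
Mobp: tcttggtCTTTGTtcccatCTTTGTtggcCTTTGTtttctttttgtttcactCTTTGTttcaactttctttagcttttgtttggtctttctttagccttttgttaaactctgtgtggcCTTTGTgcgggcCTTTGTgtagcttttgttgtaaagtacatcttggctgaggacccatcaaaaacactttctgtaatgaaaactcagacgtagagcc
Cnp: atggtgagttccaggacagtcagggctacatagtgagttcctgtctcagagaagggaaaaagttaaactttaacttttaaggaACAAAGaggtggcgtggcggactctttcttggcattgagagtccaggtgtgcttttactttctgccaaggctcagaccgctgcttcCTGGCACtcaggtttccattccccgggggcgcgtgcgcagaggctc
Mag: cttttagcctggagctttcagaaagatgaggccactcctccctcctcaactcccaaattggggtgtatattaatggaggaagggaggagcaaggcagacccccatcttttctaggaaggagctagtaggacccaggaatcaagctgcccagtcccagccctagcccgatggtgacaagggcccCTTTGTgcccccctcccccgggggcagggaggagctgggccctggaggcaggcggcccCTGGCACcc

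Upstream of Mobp there were 6 SOX cores, all on the minus strand and between -243 and -120. The Cnp region held 1 SOX core at -167 and 1 Myrf motif at -81, and the Mag region 1 of each, at -67 and -9. Mag has more than 1 RefSeq start, and from another of them the same letters lie at -126 and -68. Among windows of 300 bases, the SOX core was present in 10 of 40 windows of these genes (25%) and in 18.7% of 32851 windows of all genes. The Myrf motif was present in 5 of the 40 (12.5%) and in 5.01% of all. The E-box CAGCTG, of the kind that basic helix-loop-helix proteins such as Olig2 bind, was present in 9 of the 40 (22.5%) and in 16.3% of all. These shares describe letters only, since several genes gave more than 1 overlapping window and the data hold no measure of factor binding.

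IP against Input asks which RNAs were recovered with the tagged ribosomes. By edgeR's quasi-likelihood test with Benjamini-Hochberg adjustment over all 16898 genes tested, 40 of the 41 oligodendrocyte lineage genes fell in IP and 0 rose. Among all genes tested, 24.3% were lower and 23.3% higher. The 41 genes were chosen with earlier results known, so these shares describe the list and do not test it. All 41 passed the filter on low counts, 37 of them with at least 10 counts in each IP library. The median log2 fold change was -3.15, against -0.07 over all genes, and the median gene kept 11.2% of its Input level in IP. Of the 41, 24 fell at least 8-fold, which 9.51% of all genes did, and 40 fell at least 2-fold, which 18.4% did. In all 41 the highest IP library lay below the lowest Input library, as it did for 33.7% of all genes. IP is a pull-down, so a lower value is a smaller share of the recovered RNA than of Input RNA, and in bulk RNA fewer contributing cells and less RNA per cell cannot be told apart. Library-total scaling moved the median of all genes to -0.31 and the share of lower genes among calls from 51.1% to 68.0%, and under it 40 of the 41 were again lower and 0 higher.

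**Figure D1:**
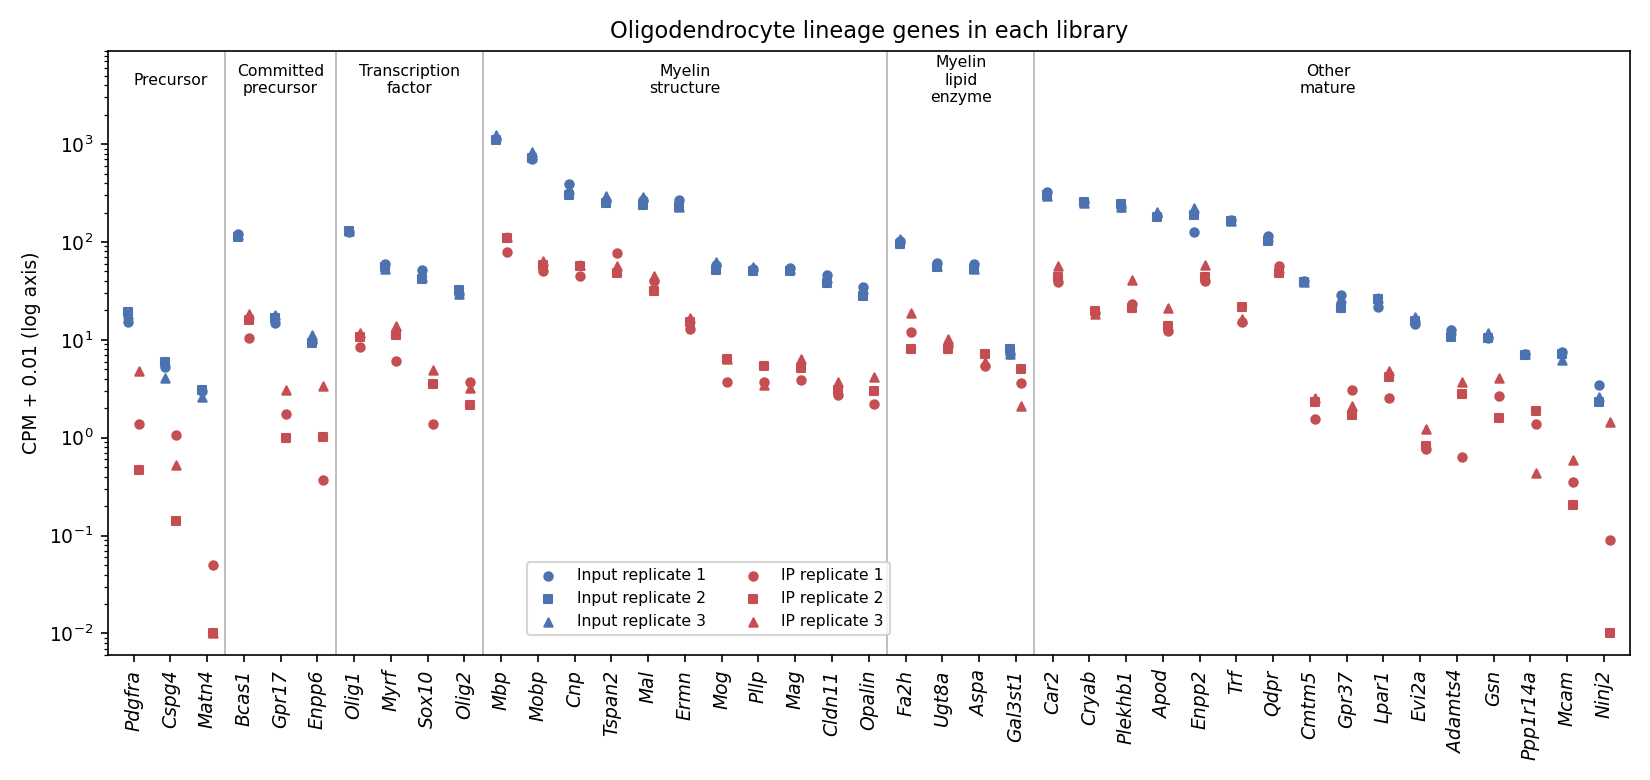
Level of each gene in each library, as CPM plus 0.01 on a log axis; blue points are Input and red points IP, with a marker shape for each replicate, and genes are ordered by role and Input level. Red points lie below blue ones for all 41 genes, and IP libraries are farther apart than Input libraries for low genes such as Enpp6 and Ninj2.

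Myelin structure genes were lower by 4.47-fold (Tspan2) to 16-fold (Ermn), and all 11 fell (median log2 fold change -3.39). Mbp encodes myelin basic protein, which holds the cytoplasmic faces of the membrane together. With replicates in the order 1, 2 and 3, here and throughout, its Input level was 1141, 1096 and 1252 CPM and its IP level 79.1, 111 and 111 CPM. The groups lay far apart, and the log2 fold change was -3.53 (SE 0.14, adjusted p = 4.69e-07). Counts by symbol do not separate the myelin transcripts of Mbp from the longer transcripts of the same gene that other cells make. Mobp, which encodes another basic protein of central myelin, went from 706, 719 and 840 CPM to 50.1, 57.8 and 64.6 CPM, or 13.1-fold lower (adjusted p = 2.43e-07). Ermn, the gene of the cytoskeletal protein ermin of the outer myelin layers, went from 266, 227 and 226 CPM to 12.9, 15.1 and 16.8 CPM (log2 fold change -4.00, SE 0.13, adjusted p = 2.43e-07).

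The other sheath genes kept between 7.48% and 22.4% of their Input level in IP. Cldn11, the claudin that seals the layers of the sheath, kept 7.48%, and the proteolipid gene Pllp kept 7.86%. Mog and Mag encode surface proteins, Mog on the outermost layer and Mag on the layer facing the axon. Mog kept 9.52% and Mag 9.83%, and the membrane protein gene Opalin kept 9.73%. Higher shares remained of Mal (14.6%), a lipid raft protein, and of Cnp (15.3%), the enzyme that keeps channels of cytoplasm open in myelin. Tspan2, a tetraspanin, had 260, 252 and 297 CPM in Input and 76.4, 48.2 and 56.5 CPM in IP, and kept 22.4% (log2 fold change -2.16, SE 0.16, adjusted p = 1.25e-05).

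Of the enzymes that make or feed myelin lipids, all 4 fell, with a median of -2.83. Aspa, which splits N-acetylaspartate into acetate for lipid synthesis, went from 55.0 ± 3.95 to 6.16 ± 0.922 CPM (SD, n = 3 each; 8.93-fold). Fa2h hydroxylates the fatty acids of myelin galactolipids and fell 7.85-fold (adjusted p = 3.00e-05). Ugt8a makes galactosylceramide and fell 6.44-fold, from 61.2, 56.0 and 56.7 CPM to 8.72, 8.02 and 10.3 CPM. Gal3st1, which adds the sulphate that turns galactosylceramide into sulfatide, stood apart from the other 3. It had 7.24, 8.08 and 7.21 CPM in Input and 3.58, 4.99 and 2.12 CPM in IP, which was 2.11-fold lower (log2 -1.08, SE 0.34, adjusted p = 0.0263). That call was lost without Input replicate 1, 2 or 3 (adjusted p = 0.0722, 0.0990 and 0.0756).

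The 4 transcription factors all fell (median -3.48). Sox10, which is needed from precursor to myelinating cell, had 51.6, 41.8 and 44.3 CPM in Input and 1.36, 3.53 and 4.96 CPM in IP (log2 fold change -3.81, SE 0.39, adjusted p = 6.21e-05). The IP replicates of Sox10 spanned 3.65-fold, but all were far under Input. Olig1 and Olig2, neighbours on chromosome 16 (mm10, 91269772 to 91271933 and 91225457 to 91228677, both plus strand), fell 12.5-fold and 9.99-fold. Olig1 had 128 ± 2.57 CPM in Input and 10.3 ± 1.74 CPM in IP, and Olig2 had 30.3 ± 1.52 and 3.02 ± 0.817 CPM (SD, n = 3 each). Myrf, the factor that drives myelin genes in maturing cells, had the smallest change of the 4, from 59.2, 55.0 and 52.5 CPM to 6.02, 11.2 and 13.7 CPM (5.39-fold, adjusted p = 9.07e-05).

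**Figure D2:**
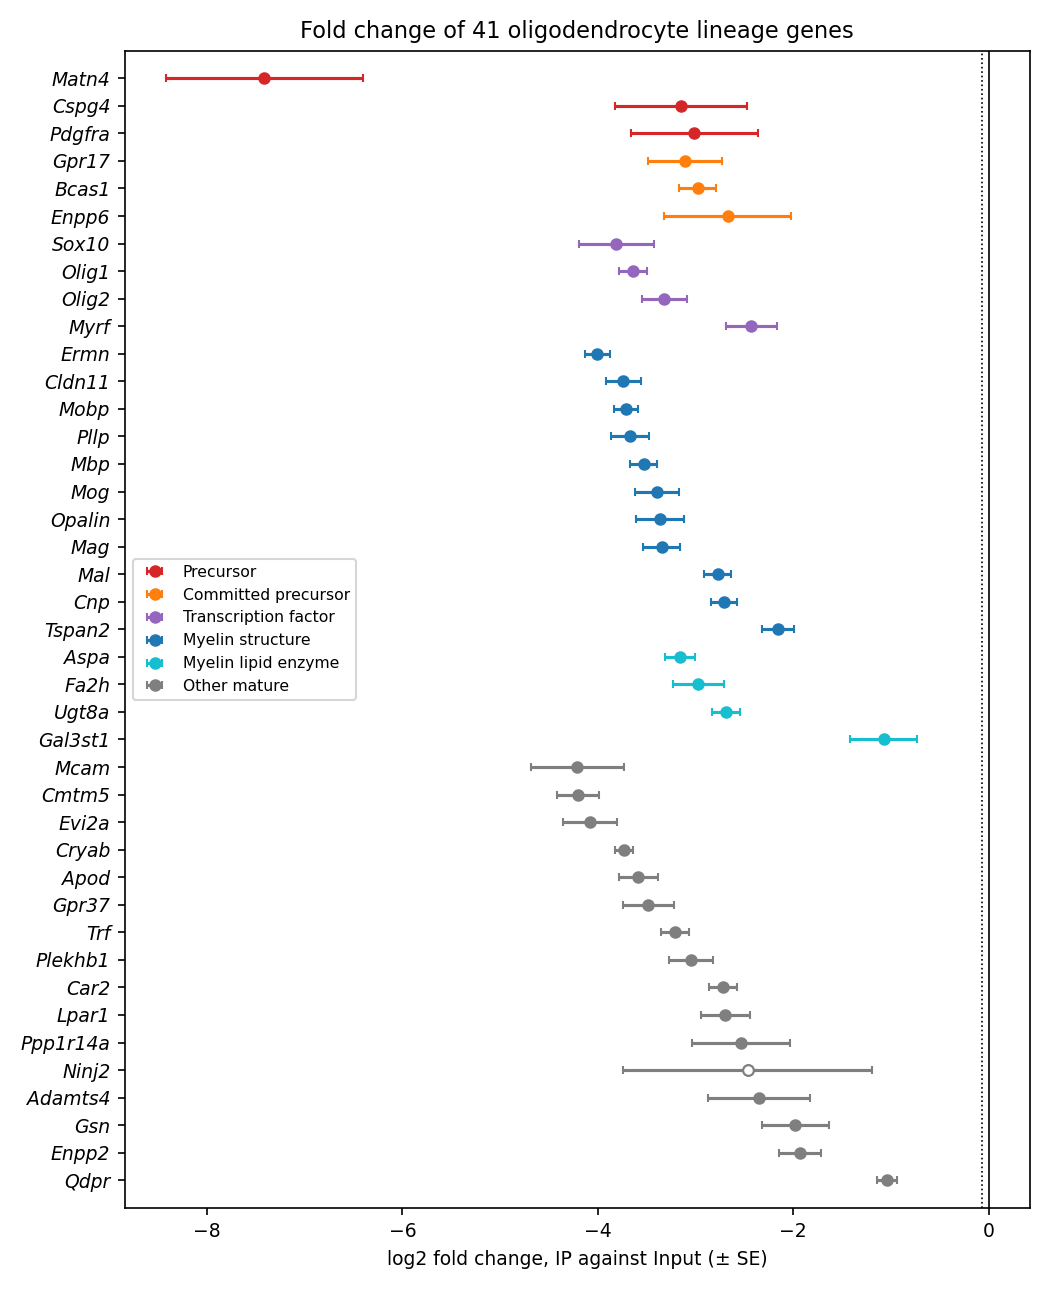
Log2 fold change of IP against Input for the 41 genes with its SE (bars), coloured by role; the open circle is the 1 gene that was not called (Ninj2), the solid line is 0 and the dotted line is the median of all genes tested. Most genes lie between -2 and -4.2, with Qdpr and Gal3st1 nearest to 0, and the Matn4 value rests on 2 counts in IP.

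Precursor genes were also lower, with more scatter between IP libraries. Pdgfra, the receptor through which platelet-derived growth factor keeps precursors dividing, had 15.3, 19.5 and 18.2 CPM in Input. In IP it had 1.36, 0.458 and 4.80 CPM, from 68, 21 and 204 counts. The fold change was 8.06 (log2 -3.01, SE 0.65, adjusted p = 0.00454), and without IP replicate 3 the log2 fold change was -4.25. Cspg4, the NG2 proteoglycan of precursors and also of pericytes, had 5.33, 5.89 and 4.04 CPM in Input and 1.06, 0.131 and 0.517 CPM in IP (adjusted p = 0.00442). Its log2 fold change of -3.15 (SE 0.68) was -3.96 without IP replicate 1. Matn4, the gene of an extracellular matrix protein, gave 77, 160 and 135 Input counts but just 2, 0 and 0 IP counts. Pooled over replicates and scaled for depth, IP was 0.504% of Input (exact 95% interval 0.0608% to 1.83%, covering counting error only; adjusted p = 0.000357).

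Genes of committed precursors and newly formed oligodendrocytes fell in the same comparison (3 of 3, median -2.98). Gpr17, an orphan receptor that holds cells at this stage, had 15, 16.7 and 17.8 CPM in Input and 1.72, 0.981 and 3.06 CPM in IP (8.61-fold, adjusted p = 0.000179). Bcas1, a marker of early myelinating cells, was the steadiest of the 3, at 118 ± 4.62 CPM in Input and 14.9 ± 3.99 CPM in IP (SD, n = 3 each; adjusted p = 5.48e-06). Enpp6, a choline phosphodiesterase of newly formed oligodendrocytes, had 9.40, 9.35 and 11.2 CPM in Input and 0.360, 1 and 3.36 CPM in IP. Its log2 fold change was -2.67 (SE 0.65, adjusted p = 0.00804), and -3.86 without IP replicate 3.

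Precursor and mature genes were both lower in IP, and the ratio between them varied among IP libraries. The summed level of the 3 precursor genes was 23.7, 28.4 and 24.9 CPM in Input and 2.46, 0.588 and 5.32 CPM in IP. For the 15 genes of myelin structure and myelin lipids the sums were 3507, 3267 and 3728 CPM in Input and 349, 372 and 413 CPM in IP. Mature sums in IP were thus close to each other, while precursor sums differed several-fold. Per 1000 CPM of mature genes, precursor genes made up 6.75, 8.71 and 6.67 CPM in Input and 7.05, 1.58 and 12.9 CPM in IP, so the groups overlapped. The IP values rest on 123, 27 and 226 precursor counts, of which Pdgfra gave 68, 21 and 204. Committed genes made up 41.5, 42.4 and 39.7 per 1000 in Input and 36.0, 48.6 and 59.6 in IP, and these groups overlapped too. Bcas1 held most of the committed CPM in every library.

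The median log2 fold change was -3.15 for the 3 precursor genes and -3.35 for the 15 mature myelin genes. The precursor median was -3.96 without IP replicate 1, -2.67 without IP replicate 2 and -4.25 without IP replicate 3, so its place above or below the mature median was not fixed. With the replicate number as a block it was -3.47, and the mature median -3.37, which also turned the order. Counts of Pdgfra per 1000 counts of Mbp were 13.4, 17.8 and 14.6 in Input and 17.2, 4.12 and 43.1 in IP (exact two-sided permutation p = 0.9, where the smallest p that 3 against 3 libraries allow is 0.1). The exact p relative to Mbp was 1 for Cspg4, 0.6 for Gpr17 and 0.7 for Enpp6. Groups did not overlap for Matn4, which was lower relative to Mbp in IP with 2 counts in all, or for Bcas1, which was higher, with 106, 103 and 95.1 per 1000 in Input and 132, 145 and 163 in IP (exact p = 0.1 each). As p could not go under 0.1, these tests do not settle whether any early gene changed relative to Mbp between IP and Input. Among all other genes tested, 79.8% were higher without overlap, as Bcas1 was, and 3.65% lower, as Matn4 was. The summed ratios of early to mature genes overlapped, which does not show that early and mature genes changed alike.

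**Figure D3:**
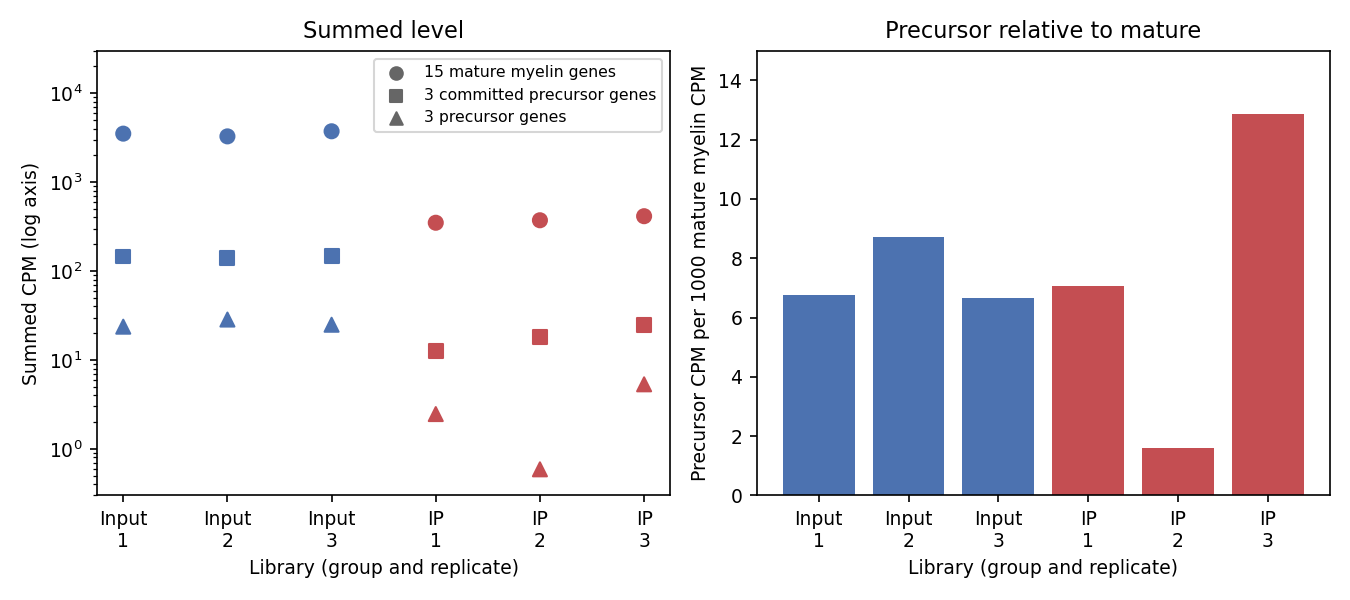
Left, summed CPM on a log axis of the 15 mature myelin genes (circles), 3 committed precursor genes (squares) and 3 precursor genes (triangles) in each library; right, precursor CPM per 1000 CPM of mature myelin genes, 1 bar for each library. Input libraries are blue and IP libraries red; the Input ratios are 6.67 to 8.71 and the IP ratios 1.58 to 12.9.

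The other 16 genes mark mature oligodendrocytes but lie outside the myelin sheath itself or occur in further cell types, and 15 of them fell (median -2.88). Cmtm5, a membrane protein of myelinating cells, went from 40.3, 39.1 and 38.8 CPM to 1.54, 2.33 and 2.56 CPM, which was 18.4-fold lower (log2 fold change -4.20, SE 0.21, adjusted p = 1.56e-06). Evi2a, which lies within an intron of Nf1, kept 5.93% of its Input level. Mcam, a cell adhesion molecule that blood vessel cells also carry, had 7.56, 7.12 and 6.20 CPM in Input and 0.340, 0.196 and 0.588 CPM in IP (adjusted p = 0.000122). Of 10 endothelial genes 8 fell, and the summed level of the 10 was 40.5 to 43.9 CPM in Input and 11.2 to 22.3 CPM in IP. Most of the IP sum was Slc2a1 (17.8, 10.5 and 15.5 CPM), while Cldn5 and Cdh5 had 0 counts in every IP library. Of 12 mural cell and fibroblast genes 5 fell and 1 rose (Pdgfrb), with sums of 34.6 to 43.8 CPM in Input and 11.5 to 17.1 CPM in IP. Pdgfrb alone held 6.66, 6.89 and 7.86 CPM of the IP sums. No gene of these lists was at 0 in all 6 libraries, and the part of such cells in the values of Mcam and Cspg4 was not tested.

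Among the abundant genes of this group, Cryab, a small heat shock protein, had the most even values, with 257, 256 and 248 CPM in Input and 18.6, 19.9 and 18.6 CPM in IP (log2 fold change -3.73, SE 0.09, adjusted p = 9.66e-08). Apod, a lipid-binding apolipoprotein, fell 12-fold, and Trf, which encodes the iron carrier transferrin, fell 9.25-fold. Gpr37, a receptor that restrains maturation, kept 8.92% and Plekhb1 kept 12.1%. Car2, the cytosolic carbonic anhydrase, went from 308 ± 17.9 to 46.6 ± 9.56 CPM (SD, n = 3 each), and kept 15.2%. Lpar1, a lysophosphatidic acid receptor, kept 15.5%, and Ppp1r14a, an inhibitor of myosin phosphatase, kept 17.2%. Adamts4, a protease of matrix proteoglycans, kept 19.6%, with 0.620, 2.77 and 3.69 CPM in IP against 12.7, 10.7 and 12.7 CPM in Input.

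Smaller changes were found in 4 genes, each less than 4-fold lower: Qdpr, Gal3st1, Enpp2 and Gsn. Qdpr makes the reductase that recycles tetrahydrobiopterin, the cofactor of aromatic amino acid hydroxylases, and many cell types use it. It had 115, 103 and 111 CPM in Input and 56.9, 48.3 and 54.2 CPM in IP, a 2.06-fold decrease (log2 -1.04, SE 0.10, adjusted p = 5.03e-05). Both groups were narrow, and the IP level was 48.6% of Input. Gsn, the actin-severing protein gelsolin, had 10.5, 10.4 and 11.9 CPM in Input and 2.68, 1.59 and 4.07 CPM in IP (adjusted p = 0.00136). Over the same libraries 18 of 20 pan-neuronal genes rose and 1 fell (Map2; median 0.83 over the 20), and the part of neuronal RNA in the values of Qdpr was not tested.

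Enpp2 makes autotaxin, the enzyme that produces lysophosphatidic acid, and choroid plexus makes it as well as oligodendrocytes. It had 127, 189 and 224 CPM in Input and 40.3, 43.4 and 58.2 CPM in IP (log2 fold change -1.93, SE 0.21, adjusted p = 0.000102). Of the 41 genes, Enpp2 had the widest spread between Input libraries, 1.76-fold, where the median spread was 1.17-fold. The choroid plexus gene Ttr had 2.78, 477 and 542 CPM in Input and 0, 40.5 and 35.0 CPM in IP, so Input replicate 1 was lowest for both genes. Of the 9 choroid plexus and ependymal genes tested 4 fell. Trf, which choroid plexus also makes, had 168, 163 and 163 CPM in Input. The part of choroid plexus RNA in the values of Enpp2 was not tested.

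Ninj2, an adhesion molecule, was the 1 gene that did not pass. It had 3.49, 2.29 and 2.58 CPM in Input and 0.0800, 0 and 1.43 CPM in IP, from 4, 0 and 61 counts. The groups did not overlap, but IP replicate 3 stood apart, and the log2 fold change of -2.47 had an SE of 1.27 (adjusted p = 0.140). Without IP replicate 3 it was -5.97 (adjusted p = 0.00245), without IP replicate 2 it was -1.88 and not called (adjusted p = 0.140). With the replicate number as a block it was -4.34 and passed (adjusted p = 0.0265 by edgeR).

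Set against Mbp within each library, a comparison that no scaling enters, 13 of the other 40 genes were higher in IP without overlap, 4 were lower and 23 overlapped. Of all 16897 other genes tested, 79.8% were higher and 3.65% lower relative to Mbp in the same way. For each gene without overlap the exact two-sided permutation p was 0.1, the smallest possible. Genes higher relative to Mbp included Cnp, with 342, 277 and 281 counts per 1000 of Mbp in Input and 564, 512 and 521 in IP. Myrf had 51.9, 50.2 and 41.9 per 1000 in Input and 76.1, 101 and 123 in IP. Qdpr went from 100.4, 93.7 and 88.9 per 1000 to 720, 435 and 487. The 4 that were lower relative to Mbp were Matn4, Ermn, Cmtm5 and Evi2a. Ermn had 233, 207 and 181 per 1000 in Input and 163, 136 and 151 in IP. Mobp overlapped, with 619 to 671 per 1000 in Input and 520 to 633 in IP.

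**Figure D4:**
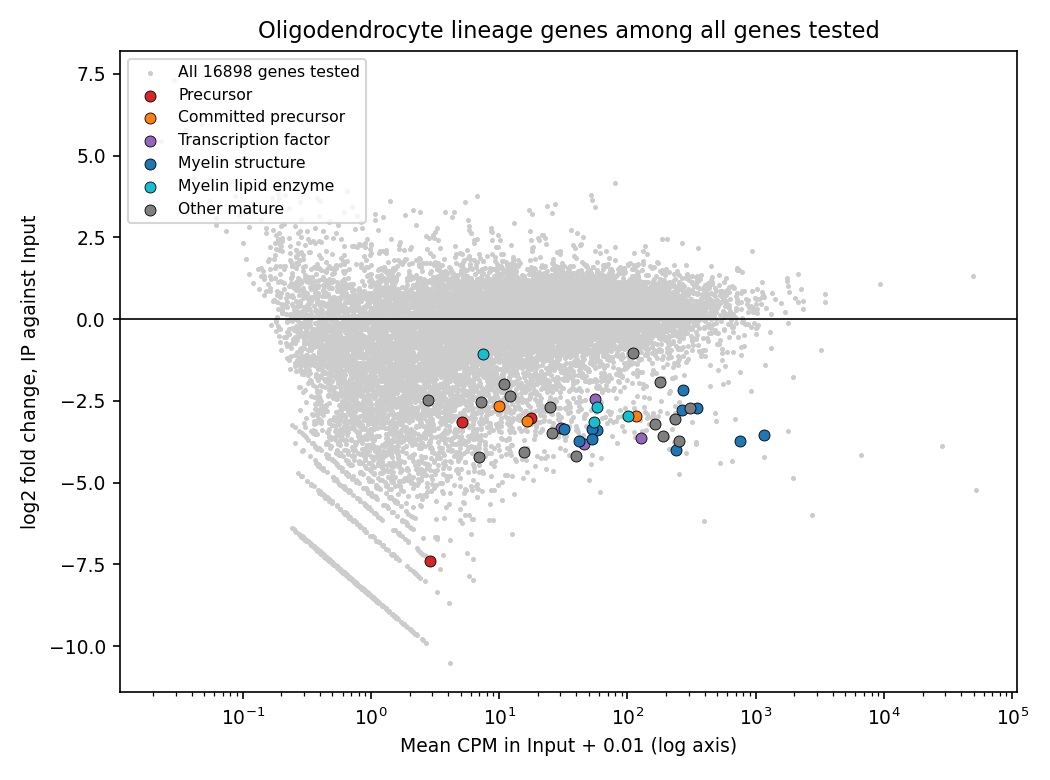
Log2 fold change of IP against Input over mean Input CPM plus 0.01 (log axis) for all genes tested (grey) and the 41 oligodendrocyte lineage genes (coloured by role). The coloured points lie below 0 at every Input level, from 2.79 CPM (Ninj2) to 1163 CPM (Mbp); the lowest is Matn4, with 2 counts in IP.

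Input level and size of decrease were only weakly related across the 41 genes. Levels were also divided by the kilobases of annotated exon, and on that scale Cryab (171 CPM per kb), Mbp (137), Car2 (127) and Mobp (110) were highest in Input. That length merges the exons of all annotated transcripts of a gene, including the longer ones of Mbp, whether or not they were expressed here. Ranks between genes on this scale are therefore uncertain. Lowest on the same scale were Cspg4 (0.426) and Matn4 (0.559). Across the 41 genes, Spearman's rho between the Input level per kilobase and the log2 fold change was -0.15, and between exon length and the log2 fold change 0.12. These genes share libraries and depth, so both values are descriptions only. In IP, Qdpr had the highest level per kilobase of the 41 (29.7 CPM per kb), above Car2 (19.3), Cnp (14.6) and Mal (14.0), and Mbp had 11.9.

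Spread between libraries was larger in IP than in Input. The highest library was 1.17 times the lowest in Input for the median gene, and 1.74 times in IP over the 39 genes above 0 in all IP libraries. In 9 genes (Pdgfra, Cspg4, Matn4, Gpr17, Enpp6, Sox10, Ppp1r14a, Adamts4 and Ninj2) IP libraries spanned over 3-fold or reached 0. Summed over the 41 genes, levels were 5495, 5273 and 5780 CPM in Input and 602, 646 and 765 CPM in IP. Mbp made up 20.8%, 20.8% and 21.7% of that sum in Input and 13.1%, 17.2% and 14.6% in IP. Exons of 17 genes share bases with another annotated gene, for example 1128 bases of Pllp with an antisense gene and 2108 bases of Trf with a gene on its own strand. No source used here states whether counting was by strand, and values of such genes are less certain.

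Further oligodendrocyte genes were taken from a separate list, with 22 of mature cells and 12 of precursors. In the mature list 18 fell, 0 rose and 4 did not pass (median -2.64). Cdc42ep1, an effector of the GTPase Cdc42, had the largest decrease (log2 fold change -4.19, SE 0.35, adjusted p = 2.10e-05), followed by Tmem125 (-3.99, SE 0.39). The smallest change was in Omg, a myelin inhibitor of axon growth that neurons also make, which had 85.7 ± 4.70 CPM in Input and 101 ± 20.4 CPM in IP (SD, n = 3 each; log2 fold change 0.24, adjusted p = 0.201 by edgeR). The other 3 that did not pass, named after their values were seen, were Carns1 (9.54 CPM in Input, 7.23 in IP), Gamt (16 and 13.4) and Galc (14.4 and 9.26).

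In the precursor list 10 of 12 fell (median -2.18), led by the transcription factor genes Sox8 (log2 fold change -3.59, SE 0.19) and Nkx2-2 (-3.07, SE 0.25). Lhfpl3, which is also found outside precursors, rose from 58.4, 58.3 and 62.5 CPM in Input to 338, 227 and 272 CPM in IP (log2 fold change 2.22, SE 0.14, adjusted p = 5.29e-06). Xylt1, which starts the sugar chains of proteoglycans, had 6.99 CPM in Input and 6.82 in IP and did not pass. Both lists thus held genes near no change, such as Omg and Xylt1, and the precursor list held Lhfpl3, which rose. Among the 41 genes none rose, and the smallest change was the 2.06-fold decrease of Qdpr. All these genes were chosen with earlier results of these data known, and the part of that choice in this difference was not tested.

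Astrocyte and microglial genes had medians near that of the 41 genes. All 18 astrocyte genes fell (median -3.11), and their summed level was 2565 to 2649 CPM in Input and 857 to 923 CPM in IP. Most of that IP sum was Slc1a2 (425 CPM), Aldoc (229) and Glul (202), whose log2 fold changes were -0.85, -1.26 and -2.19. Of 16 microglial genes 12 fell and 4 did not pass (median -3.43), with sums of 72.2 to 85.4 CPM in Input and 11.2 to 14.4 CPM in IP. Differences between these lists and the oligodendrocyte genes were not tested.

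**Figure D5:**
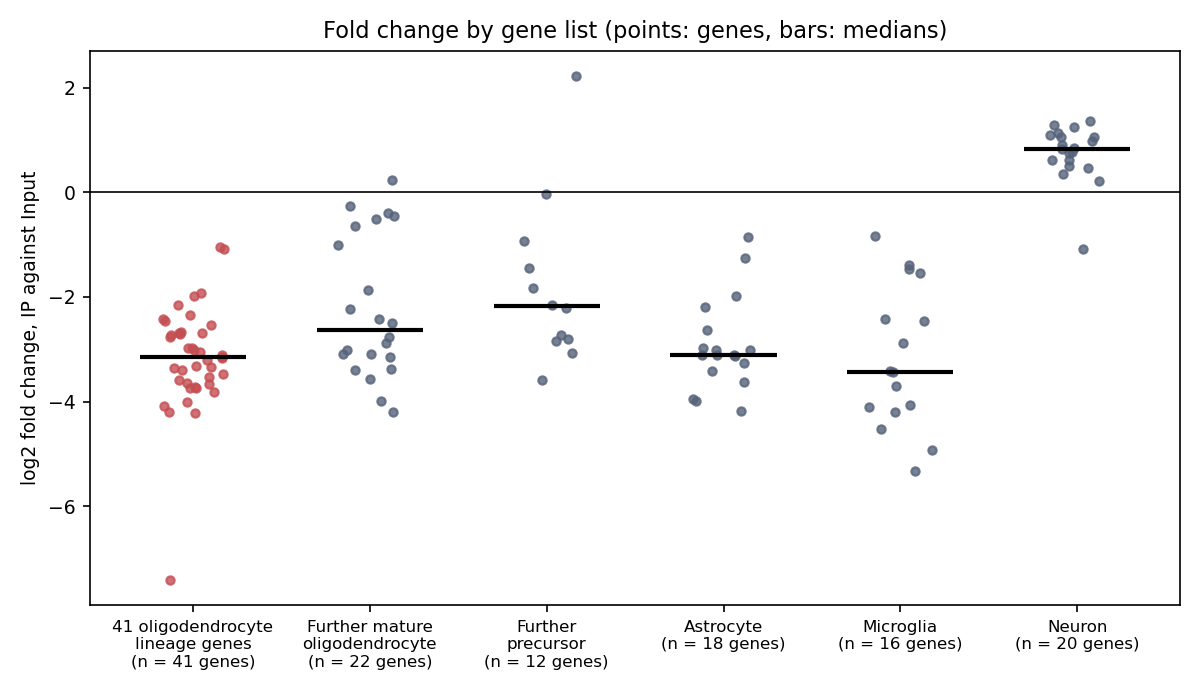
Log2 fold change of IP against Input for each gene (points) in the 41 oligodendrocyte lineage genes and in 5 other lists, with the median of each list as a bar and points spread sideways for visibility. The medians are -3.15 for the 41 genes, -2.64 and -2.18 for the further oligodendrocyte lists, -3.11 for astrocytes, -3.43 for microglia and 0.83 for neurons.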

How the data were processed

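The authors deposited raw read counts per gene, 1 file for each of 6 libraries. The submitters' processing notes name STAR 2.0.0e, HTSeq and mm10, so the deposited counts are taken as HTSeq counts of STAR alignments, per the submitters' processing notes; the annotation and strand setting are not given in the sources used here. The 6 lines that name no gene were left out. Of all entries in a file, those lines held 32.7 to 34.0% as not unique in Input and 43.2 to 49.7% in IP. They held 14.8 to 15.9% as no feature in Input and 8.44 to 9.39% in IP. The ambiguous share was 5.47 to 6.60% in Input and 1.32 to 1.58% in IP. Replicates differed by more than sampling noise (chi-square per degree of freedom 12.3 to 22.0 in Input and 44.2 to 141 in IP), and each library counted as 1 sample.

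IP was compared with Input in R 4.3.3 with edgeR 4.0.16: filterByExpr (minimum count 10), TMM scaling, robust quasi-likelihood F-test, Benjamini-Hochberg adjustment over all genes tested, threshold 0.05. Each SE is the absolute log2 fold change over the square root of F. The fit was checked on simulated data with the same dispersion in both groups and few changed genes. That check does not cover the wider spread in IP or the many changed genes here. Lengths and positions came from GENCODE M21. Alternatives were upper-quartile scaling, library totals, DESeq2 1.42.0, 2 other filters (no filter, and a mean of at least 1 CPM), the replicate number as a block, and leaving out each library. The pseudocount for counts relative to Mbp was 0.5.

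The genes and lists were chosen with earlier results of these data known. Every one of the 41 genes could be named; of the other lists the rule took counts, medians, genes called higher, the 2 with the largest change and the 1 with the smallest, applied to the further oligodendrocyte lists; markers of tissue and of other cell types are named where a result turns on them.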

Additional observations from a re-analysis of the deposited data

How the results depend on the processing

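Under the 12 alternatives the count of lower genes among the 41 ran from 39 to 41 and the count of higher genes was 0 in each. The Gal3st1 and Ninj2 calls described above are the only ones of the 41 that changed. Over all genes, 2464 were higher with library totals against 3930 in the main analysis. Leaving out 1 library moved the fold change of 5 of the 41 genes (Pdgfra, Cspg4, Matn4, Enpp6 and Ninj2) by over 1.5 times. Replicate numbers were shared between IP and Input, but same-numbered libraries deviated together only weakly (r = 0.06, 0.04 and 0.01 over 16898 genes), and 5 of 6 libraries correlated best with their own number. Over the 41 genes alone the same-number r was -0.05, -0.14 and 0.06. The highest r over them, 0.42, was between Input replicate 2 and IP replicate 1. With the replicate block 41 of the 41 genes were lower, Ninj2 included, the precursor median was -3.47 and the mature median -3.37, and over all genes 3793 were higher and 4038 lower. Counts were low for some genes, with 21 or fewer in at least 1 IP library (Pdgfra, Cspg4, Matn4, Enpp6, Ppp1r14a, Mcam and Ninj2).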
